A study of Rattus norvegicus with 6 samples.

Results

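The dystrophin-glycoprotein complex was examined in RNA-seq counts of H9c2 cells, a myoblast line from embryonic rat heart. Its members were chosen by name, as the genes Dmd, Utrn, Dag1, Sgca, Sgcb, Sgcd, Dtna, Sntb1 and Sspn, and compared between knockout and control libraries. Of these 9 symbols, 8 had a row among the 16319 genes of the count table, and Dtna was not analysed here. The knockout group, Nono-KO, is an H9c2 line in which the sgRNA and Cas9 plasmid PX459 was used to disrupt Nono, and it was kept as a stable line by puromycin selection. The control group, WT, is H9c2 with the wild type genotype, pEGFP-N1 being named as the control plasmid. Each group has 3 libraries, called biological replicates in the methods, and since the text of the sources does not say how many clones they come from, p-values cover only the variation among these libraries.

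The complex spans the muscle cell membrane and ties the actin cytoskeleton to the basement membrane. Dystrophin or its paralog utrophin binds actin inside the cell and the transmembrane beta-dystroglycan, whose partner alpha-dystroglycan binds laminin through its sugar chains. The sarcoglycans and sarcospan form a side complex in the membrane, and the syntrophins and dystrobrevins are cytoplasmic adaptors. Loss of dystrophin, of single sarcoglycans or of the dystroglycan sugars causes muscular dystrophy, often with cardiomyopathy.

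Library totals were 17612958 to 18770188 counts in Nono-KO and 18138400 to 19253858 counts in WT. The targeted gene Nono was counted 109, 94 and 96 times in Nono-KO, against 7329, 5884 and 5519 in the WT libraries. WT replicate 1 stood apart from the other WT libraries on the second principal component (4.96% of the variance), at 29.1 against -15.3 and -11.1. The differences between groups were wide. Of 12028 genes tested with edgeR, 34.2% rose and 38.1% fell in Nono-KO cells at a Benjamini-Hochberg adjusted p under 0.05, 72.2% in all. The markers of muscle moved as well. Of 8 skeletal myotube markers tested, 7 rose, with a summed level of 764 to 939 CPM (counts relative to the library total, after TMM scaling) in Nono-KO and 133 to 192 CPM in WT, and of 6 smooth muscle markers 5 rose, with 14591 to 15673 CPM in Nono-KO against 6636 to 7491 CPM in WT. Among these, Mymx, Ckm and Myh11 reached the count minimum in all 3 Nono-KO libraries but in at most 1 WT library, so they entered the test through the group in which they were higher. Both sums rest largely on single genes. Acta1 had 480 CPM in Nono-KO and 14.7 CPM in WT on average, and Myod1, which did not pass, 151 and 126 CPM. The smooth muscle gene Acta2 had 11595 CPM in Nono-KO and 5311 CPM in WT. Of 9 cardiomyocyte markers 4 were tested and 1 rose, with a summed level of 172 to 199 CPM in Nono-KO and 48.7 to 127 CPM in WT. The one that rose was the transcription factor gene Nkx2-5, at 40.6 CPM in Nono-KO and 20.9 CPM in WT on average (log2 fold change 0.96), while Gata4 (log2 fold change 0.23) did not pass. Tnnt2 did not pass either (adjusted p = 0.180 from edgeR), with 111, 135 and 137 CPM in Nono-KO and 13.4, 78.0 and 83.0 CPM in WT, the lowest being WT replicate 1. Myh6, Myh7, Nppa, Nppb, Tnni3 and Ryr2 were each below 1 CPM on average in both groups, although the sample label is cardiac muscle. Fibroblast markers gave 1 that rose and 3 that fell of 4 tested. The endothelial markers with a row, Pecam1, Kdr and Tek, were each at or below 0.199 CPM in every library. The part of these markers in the results below was not tested.

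All 8 members with a row passed the filter on low counts, and 2 of them rose while 3 fell in Nono-KO cells (edgeR, adjusted p under 0.05). This is 5 of 8, against 72.2% of all genes tested, so the share of members called was not above the background. Utrn and Sgcb fell, Sgca rose, and the calls for Dag1, which fell, and Sspn, which rose, were lost under some settings. Dmd, Sgcd and Sntb1 did not pass. The median log2 fold change of the members was -0.35, beside -0.05 for all tested genes. The libraries of both groups did not overlap for 7 members, 3 higher and 4 lower in Nono-KO, where 75.1% of all tested genes do not overlap, 36.1% being higher and 39.0% lower. Only Utrn, which was lower, passed both thresholds of the study (adjusted p below 0.01, and log2 fold change above 1 or below -1), as did 29.5% of all tested genes (10.8% higher and 18.7% lower).

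**Figure D1:**
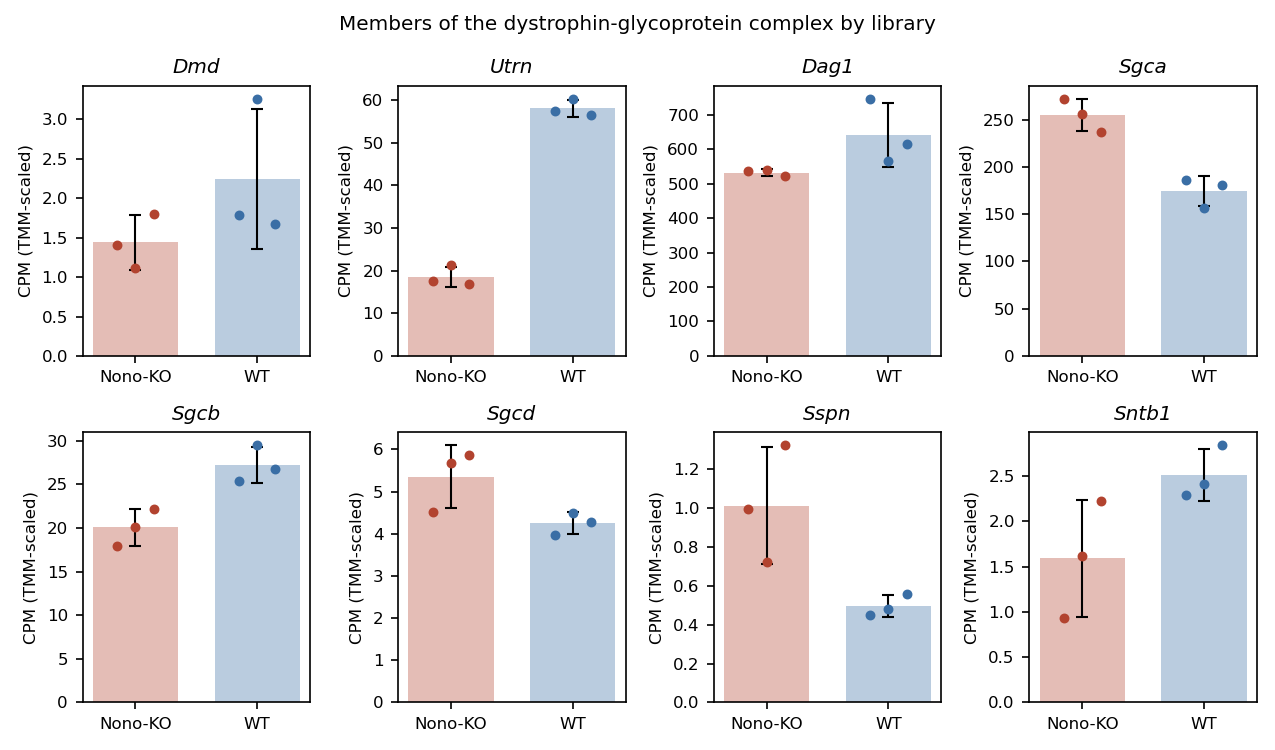
CPM after TMM scaling (vertical axes, each from 0) of the 8 members in Nono-KO (red, left) and WT (blue, right) cells. Each bar is a mean with its SD, each point a library (3 a group), and Utrn lies at 16.8 to 21.3 CPM in Nono-KO against 56.5 to 60.3 CPM in WT.

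Utrn, which encodes utrophin, the widely expressed paralog of dystrophin that is found along the membrane of immature muscle and at the neuromuscular junction of mature muscle, had the largest change of the 8 members. It had 17.7, 21.3 and 16.8 CPM in the Nono-KO libraries and 57.4, 60.3 and 56.5 CPM in the WT libraries. Every Nono-KO library was thus below every WT library, with a wide gap between them. On the log2 scale the Nono-KO level differed from that of WT by -1.64 (standard error 0.11, 95% interval -1.88 to -1.40, adjusted p = 2.30e-07 from edgeR), that is 0.320 of the WT level. In bulk RNA, fewer cells with a transcript and less of it per cell cannot be told apart.

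Dmd, which encodes dystrophin, was scarcely counted. Its counts were 24, 20 and 34 in Nono-KO and 36, 61 and 30 in WT. This is 1.40, 1.11 and 1.80 CPM in Nono-KO and 1.79, 3.26 and 1.67 CPM in WT, and the groups overlap. The log2 fold change was -0.63 (standard error 0.32, 95% interval -1.33 to 0.07, adjusted p = 0.094 from edgeR), so that a fall to 0.398 of the WT level and no change both lie within the interval. The high value of WT replicate 2 weighs on this estimate, which was -0.27 without that library, and without WT replicate 1 it was -0.78 with an adjusted p of 0.041 from edgeR. Dmd has several promoters and a long series of isoforms, from the full muscle protein to the short Dp71, which counts per gene symbol do not separate.

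As a ratio within each library, which does not depend on the scaling between libraries, Dmd to Utrn stood on the log2 scale at -3.63, -4.22 and -3.21 in Nono-KO and at -4.98, -4.20 and -5.06 in WT. One WT library lay within the Nono-KO range. The mean difference was 1.06 towards Dmd in Nono-KO (exact two-sided permutation test over libraries, p = 0.20, adjusted p = 0.35 over 7 ratios). With 3 libraries against 3 the smallest p that this test can give is 0.1.

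Dag1 encodes the precursor that is cut into alpha- and beta-dystroglycan. Its level was 536, 540 and 522 CPM in the Nono-KO libraries and 746, 565 and 614 CPM in the WT libraries. The Nono-KO libraries lay close together and just below the lowest WT library, and WT replicate 1 was the highest. Its log2 fold change stood at -0.27 (standard error 0.10, with an adjusted p = 0.030 from edgeR), a level 0.830 of that in WT. Without WT replicate 1 it was -0.15 with an adjusted p of 0.102 from edgeR, and the call was lost in 8 of 13 alternatives in all, among them DESeq2 (-0.24, adjusted p = 0.054) and the replicate block (-0.26, adjusted p = 0.0504).

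The sarcoglycan members did not move together. Sgca, alpha-sarcoglycan, which is specific to striated muscle, had 272, 256 and 237 CPM in the Nono-KO libraries and 187, 157 and 181 CPM in the WT libraries. All Nono-KO libraries were above all WT libraries, by 0.54 on the log2 scale (standard error 0.09) or 1.46-fold, with an adjusted p of 0.000246 from edgeR. Sgcb, beta-sarcoglycan, a core subunit made in many tissues, had 17.9, 20.1 and 22.1 CPM in Nono-KO against 25.4, 29.5 and 26.7 CPM in WT. It fell in Nono-KO cells, again without overlap, by 0.44 on the log2 scale (standard error 0.12, adjusted p = 0.0056 from edgeR).

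Sgcd, delta-sarcoglycan, the partner of beta-sarcoglycan in the core of the subcomplex, had 4.50, 5.68 and 5.88 CPM in Nono-KO and 3.98, 4.49 and 4.28 CPM in WT. The lowest Nono-KO library stood just over the highest WT library, and the log2 fold change of 0.33 (95% interval -0.07 to 0.73, adjusted p = 0.119 from edgeR) did not pass. Within libraries the Sgcb to Sgcd ratio was the steadiest of those computed, with log2 values of 1.98, 1.82 and 1.91 in Nono-KO against 2.66, 2.71 and 2.63 in WT. The mean difference of Nono-KO from WT was -0.763, many times the SD of 0.0807 in Nono-KO and 0.0371 in WT (exact two-sided permutation p = 0.1, the smallest possible, adjusted p = 0.233 over 7 ratios).

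Sspn, sarcospan, a small tetraspan-like protein that binds the sarcoglycans, was close to the limit of counting, with 17, 13 and 25 counts in Nono-KO and 9, 9 and 10 in WT. These are 0.994, 0.724 and 1.32 CPM in Nono-KO against 0.448, 0.481 and 0.556 CPM in WT, so that no library overlaps. The log2 fold change was 1.03 (standard error 0.35, 95% interval 0.27 to 1.80, adjusted p = 0.019 from edgeR). Sspn reached the count minimum in all 3 Nono-KO libraries and in only 1 WT library, so it entered the test through the group in which it was higher. The call was lost without Nono-KO replicate 3 (0.82, adjusted p = 0.083 from edgeR) and with DESeq2 (1.06, adjusted p = 0.102).

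Sntb1, beta-1-syntrophin, a PDZ adaptor that binds dystrophin, utrophin and dystrobrevin, had 0.936, 1.61 and 2.22 CPM in Nono-KO and 2.29, 2.41 and 2.84 CPM in WT. The Nono-KO libraries spread widely, and the highest lay just under the lowest WT library. The log2 fold change was -0.64 (standard error 0.30, 95% interval -1.29 to 0.00, adjusted p = 0.069 from edgeR) and did not pass. It was -0.93 without Nono-KO replicate 3 (adjusted p = 0.024) and -0.38 without Nono-KO replicate 1 (adjusted p = 0.276), both from edgeR, so single libraries decided this value.

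**Figure D2:**
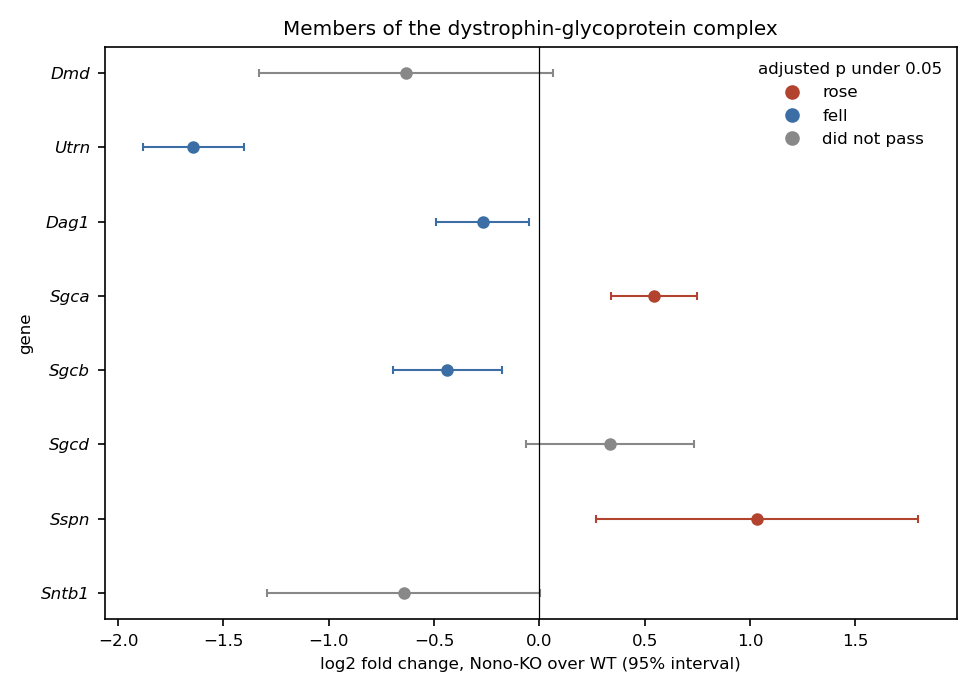
Log2 fold change, Nono-KO over WT, and its 95% interval (horizontal axis) for the 8 members. Colours mark genes that were called higher, called lower or not called (adjusted p below 0.05), and the intervals of Dmd, Sgcd and Sntb1 cross 0.

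The remaining within-library ratios set the members against Dag1 or Dmd. Sgcd to Dag1 was 0.582 higher in Nono-KO on the log2 scale and Sspn to Dag1 was 1.22 higher, both without overlap (exact two-sided permutation p = 0.1 each, adjusted p = 0.233). Sgcb to Dag1 (-0.181), Dmd to Dag1 (-0.328) and Sntb1 to Dmd (-0.138) overlapped between the groups, with exact permutation p = 0.4, 0.6 and 0.7. Single libraries decided their size, and without WT replicate 1 they were -0.343, -0.569 and -0.0753. None of the 7 ratios can pass a threshold of 0.05 with 3 libraries a group.

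**Figure D3:**
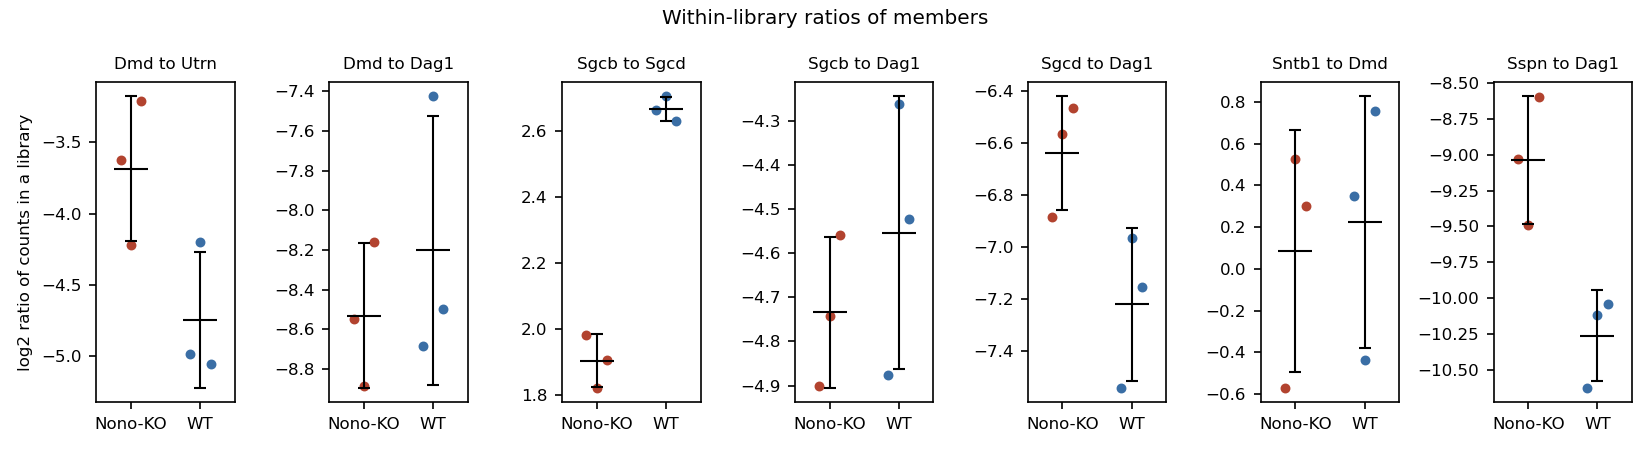
Log2 ratio of the counts of 2 members in the same library (vertical axes, each with its own range) in Nono-KO (red, left) and WT (blue, right) cells. Points are libraries, dashes are means and error bars are SD, and the groups separate for Sgcb to Sgcd, Sgcd to Dag1 and Sspn to Dag1.

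The other subunits of the complex went both ways. Of 11 listed, 8 had a row and 6 were tested, of which 3 rose and 3 fell (of all tested genes 34.2% rose and 38.1% fell). Sgce, epsilon-sarcoglycan, the widely expressed paralog of Sgca, had 3, 1 and 2 counts in Nono-KO against 489, 395 and 359 in WT, a ratio of scaled totals of 0.00508 (exact 95% interval 0.00186 to 0.0111, for counting error only). Sgce was lower in every Nono-KO library and reached the count minimum in WT alone.

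Among the adaptors, Sntb2, beta-2-syntrophin, had 12.5, 13.0 and 13.6 CPM in Nono-KO against 28.0, 29.7 and 30.7 CPM in WT and fell by 1.18 on the log2 scale (standard error 0.11). Dtnb, beta-dystrobrevin, the paralog of Dtna known chiefly from tissues other than muscle, fell by 0.48 (standard error 0.08), with 51.6, 56.2 and 56.1 CPM in Nono-KO against 74.4, 75.6 and 78.8 CPM in WT. Cav3, the muscle caveolin, which binds beta-dystroglycan, rose, at 317 to 372 CPM in Nono-KO and 137 to 198 CPM in WT (log2 fold change 0.99). Nos1, the nitric oxide synthase held at the membrane by the complex, had 1 count in all 6 libraries together, and Drp2, a dystrophin-related protein, had 2 counts in Nono-KO and 1 in WT.

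Upstream sequences from RefSeq (build GRCr8) were at hand for 7 of the 9 members, Dag1 and Sntb1 not among them. The 250 bases before the annotated start are printed for the 4 called members that have one, because these members went in opposite directions, with capitals marking each E-box (CANNTG on either strand), the core letters bound by MyoD-family and other basic helix-loop-helix factors. Sgca (chr10:80416076-80416325, minus strand) and Sspn (chr4:180627632-180627881, plus strand) were higher in Nono-KO, and Utrn (chr1:9044488-9044737, minus strand) and Sgcb (chr14:34917413-34917662, plus strand) were lower.
Sgca: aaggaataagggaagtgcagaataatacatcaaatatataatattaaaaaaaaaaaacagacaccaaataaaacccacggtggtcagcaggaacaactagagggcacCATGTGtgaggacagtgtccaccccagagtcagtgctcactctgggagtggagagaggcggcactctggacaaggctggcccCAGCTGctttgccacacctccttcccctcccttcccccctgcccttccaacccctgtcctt
Sspn: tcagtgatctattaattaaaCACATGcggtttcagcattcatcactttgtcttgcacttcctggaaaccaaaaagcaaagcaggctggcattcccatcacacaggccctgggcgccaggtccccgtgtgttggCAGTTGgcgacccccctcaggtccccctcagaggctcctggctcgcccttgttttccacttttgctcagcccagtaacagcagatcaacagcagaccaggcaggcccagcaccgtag
Utrn: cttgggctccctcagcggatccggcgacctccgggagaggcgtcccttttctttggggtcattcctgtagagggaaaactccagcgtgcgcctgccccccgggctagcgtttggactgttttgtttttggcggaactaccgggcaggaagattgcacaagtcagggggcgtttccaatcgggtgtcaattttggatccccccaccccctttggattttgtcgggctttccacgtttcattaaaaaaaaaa
Sgcb: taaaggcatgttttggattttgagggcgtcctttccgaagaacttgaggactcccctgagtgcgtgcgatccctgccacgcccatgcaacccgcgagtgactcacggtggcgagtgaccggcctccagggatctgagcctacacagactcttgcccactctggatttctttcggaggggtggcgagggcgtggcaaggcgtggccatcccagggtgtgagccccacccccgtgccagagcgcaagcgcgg

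The Sgca and Sspn windows held 2 E-boxes each and the Utrn and Sgcb windows 0, where 65.5% of 33469 upstream windows of this length hold at least 1. One of the Sgca matches reads CAGCTG, an E-box spelling found in 12.0% of windows. Of the members with no call, the Sgcd window held 1 E-box, and of the 3 annotated starts of Dmd the one first in order held 1 E-box and 1 CArG box, the site of serum response factor, which 1.5% of windows hold. The M-CAT letters CATTCC (12.1% of windows) were found once each in the Utrn, Sspn and Dtna windows, and the Dtna window also held 3 E-boxes, 2 of them CAGCTG. Of the other subunits with a window, Dtnb, which fell, and Cav3, which rose, held 1 E-box each, and Sgce and Sntb2, which fell, held 0. The N-box letters TTCCGG (12.6%) and the MEF2 site (0.523%) were found in no member window, the GC box GGGCGG (30.5%) and the letters TATAAA (12.9%) in the windows of the other starts of Dmd, and GGGCGG also in that of Dtna. All were searched on both strands, and a match is a description of letters and not a site in use. The printed windows were chosen by their calls, and a link between these letters and the direction of change was not tested.

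Genes for the sugar chains of alpha-dystroglycan were more often higher than lower in Nono-KO cells. Of 18 with a row, all tested, 9 rose, 4 fell and 5 did not pass (edgeR, adjusted p under 0.05), beside 34.2% that rose and 38.1% that fell of all tested genes, and the median log2 fold change was 0.33. Dpm3 (1.22, standard error 0.18) and Dpm2 (0.59, standard error 0.10), subunits of the dolichol-phosphate-mannose synthase that supplies the mannose donor, rose. B4gat1, which primes the laminin-binding sugar polymer, rose to 113 ± 4.61 CPM (SD, n = 3) in Nono-KO, against 67.7 ± 4.80 CPM (SD, n = 3) in WT. Pomgnt1, an N-acetylglucosaminyltransferase and the most abundant of these by CPM, was at 435 ± 26.5 CPM in Nono-KO and 299 ± 29.0 CPM in WT (SD, n = 3 each). B3galnt2, which acts in the core that carries the laminin-binding polymer, fell by 1.10 on the log2 scale (standard error 0.17). Dpm1, the catalytic subunit of the mannose donor synthase (-0.59, standard error 0.17), and the xylosyltransferase Rxylt1 (-0.32, standard error 0.11) fell too. One of the 4 that fell reached the count minimum in 3 libraries of WT alone. The number that fell was 1 without Nono-KO replicate 1 and 2 without Nono-KO replicate 2 or WT replicate 2. The number that rose lay between 6 and 10 when single libraries were left out.

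Genes for the matrix ligands of dystroglycan, among them single chains of the laminins, went both ways. Of 8 tested, 3 rose, 2 fell and 3 did not pass, with a median log2 fold change of -0.03. These 5 of 8 are a share below the 72.2% called among all tested genes. Lamc1, the gamma chain of most laminins, had 720, 793 and 663 CPM in Nono-KO against 1817, 1849 and 2184 CPM in WT and fell by 1.43 on the log2 scale (standard error 0.10). Lamb1, a beta chain, also fell (-0.36, standard error 0.09), while the beta chain Lamb2, found in muscle and at the neuromuscular junction, rose (0.70, standard error 0.13), as did agrin, Agrn (0.62, standard error 0.16), and the alpha chain Lama5 (0.55, standard error 0.16), whose libraries overlapped. Lama2, the alpha chain of muscle laminin, had 13 counts in Nono-KO and 12 in WT over 3 libraries each and was not tested. Biglycan, Bgn, and perlecan, Hspg2, did not pass, with log2 fold changes of -0.10 (95% interval -0.30 to 0.09) and 0.05 (95% interval -0.37 to 0.47).

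Of 10 tested cytoskeletal and membrane partners, 1 rose, 6 fell and 3 did not pass, with a median log2 fold change of -0.44, where 72.2% of all tested genes were called, 34.2% higher and 38.1% lower. Desmin, Des, the muscle intermediate filament protein, rose to 96.8 ± 8.90 CPM in Nono-KO, against 22.1 ± 5.62 CPM in WT (SD, n = 3 each, log2 fold change 2.13, standard error 0.15). Those that fell most were Ahnak, a giant scaffold protein beneath the membrane (-2.40, standard error 0.16), Synm, an intermediate filament protein that binds dystrobrevin (-0.76, standard error 0.13), and Plec, plectin, a cytoskeletal linker (-0.66, standard error 0.14). Flnc, filamin C, which binds delta-sarcoglycan, had 2286, 2412 and 2032 CPM in Nono-KO and 1582, 2724 and 3780 CPM in WT, with WT libraries on both sides of the Nono-KO range, and did not pass (-0.27, 95% interval -0.95 to 0.42).

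The other laminin receptor of muscle, the alpha-7 beta-1 integrin, and the proteins of membrane repair were all called, with 4 of 10 higher and 6 lower and a median log2 fold change of -0.63, beside 72.2% of all tested genes called, 34.2% higher and 38.1% lower. Itga7 rose (0.49, standard error 0.14), with overlap between the libraries, while its partner Itgb1 had 240, 234 and 279 CPM in Nono-KO against 733, 862 and 835 CPM in WT and fell by 1.69 (standard error 0.10). Ilk, the kinase-like adaptor of beta integrins (0.25), and Anxa6, an annexin of membrane repair (0.35), rose, as did the repair protein gene Trim72 (2.39), which was below 5 CPM and named after its value was seen. Trim72 reached the count minimum in 3 Nono-KO but only 2 WT libraries, so it too entered the test through the group in which it was higher. Myof, myoferlin (-1.39, standard error 0.08), and the annexins Anxa1 (-1.13, standard error 0.22) and Anxa2 (-0.82, standard error 0.08) fell, as did dysferlin, Dysf (-0.96), named after its value was seen.

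**Figure D4:**
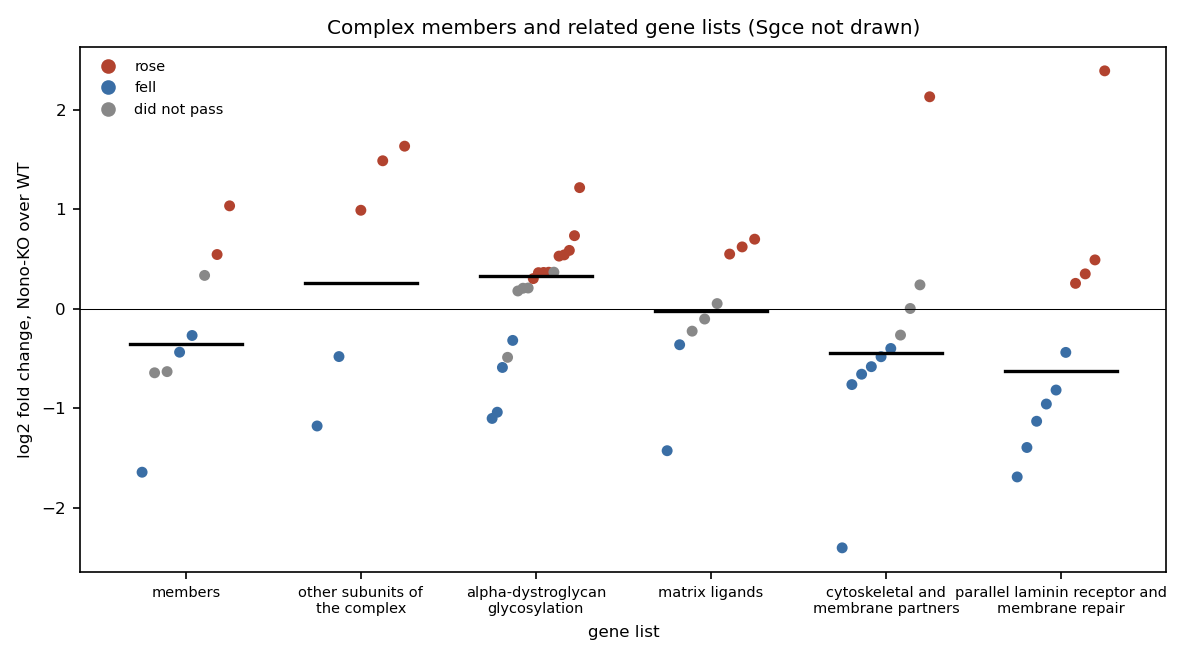
Log2 fold change, Nono-KO over WT (vertical axis), of the tested genes in the complex and in 5 related lists (horizontal axis), Sgce not drawn. Each point is a gene, with colours for called higher, called lower and not called. Each bar is the median of all tested genes of its list, Sgce included. It lies at -0.35 for the members, 0.25 for the other subunits and 0.33 for the glycosylation genes.

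As a description over the 6 libraries, the genes of at least 5 CPM whose centred log2 CPM lay nearest to those of a member were sought. For Utrn they were Rcor1, Map3k5 and Nsd1, with log2 fold changes of -1.74, -1.70 and -1.65 and Euclidean distances of 0.189 to 0.211. For Dag1 they were Sfxn3, Cdca5 and Hlcs (distances 0.0708 to 0.0795), and for Dmd, Smc4, Zfp68 and Yme1l1 (distances 0.204 to 0.247). These distances rest on 3 libraries a group and share the difference between the groups.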

How the data were processed

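Total RNA of H9c2 cells was sequenced in 6 stranded mRNA libraries. The authors deposited raw counts per gene symbol, with no scaling and no pooling, and the 6 single-library files were checked to equal the joint table. Per the labels, Trimmomatic, HISAT2 and HTSeq were used with the build mRatBN7.2, whereas the methods of the study name Bowtie2 and Rn6. Neither annotation nor strand setting is given in the sources used here, so reads shared between overlapping genes may have been split or dropped.

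Counts were fitted with genotype as the only term by the quasi-likelihood test of edgeR 4.0.16 (R 4.3.3) with robust dispersions, TMM scaling and filterByExpr (minimum count 10), which kept 12028 of 16319 genes. Rose and fell mean a Benjamini-Hochberg adjusted p under 0.05 over all tested genes. Fold changes are Nono-KO over WT, CPM are scaled by TMM, and a standard error is the absolute log2 fold change over the square root of the F statistic. Ratios of members used counts plus 0.5 and an exact permutation test over libraries. The fit was run on simulated counts in which only a small part of the genes changed. There edgeR called 31 of 50 genes with a 1.5-fold change and 45 of 50 with a 2-fold change. It also called 13 of 11708 genes with no change. Since 72.2% of tested genes were called in the real libraries, the simulation does not show how TMM scaling behaves there. Libraries of one group always differed by more than sampling noise (chi-square per degree of freedom 2.33 to 20.6), so none was counted as a duplicate. Intervals of count ratios cover counting error only.

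The members and the lists were chosen with earlier results of these data known. Genes named from a list are its up to 3 largest called changes in each direction that reach 5 CPM in either group, and its 2 most abundant members, and other names were chosen after their values were seen. Alternatives were DESeq2 1.42.0, other scalings and filters, thinning, other thresholds, a block on replicate number and leaving out each library. Some genes of the lists are counted in them but not reported here.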

Additional observations from a re-analysis of the deposited data

How the results depend on the processing

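Utrn, Sgca and Sgcb kept their direction and their call in all 13 alternative fits, and Sgcd, never called, kept its direction. The number of members that rose was 1 in place of 2 with the stricter filter, which removed Sspn, with DESeq2 and at an adjusted p under 0.01, and 0 at the thresholds of the study, where 1 member fell in place of 3. Leaving out each library in turn gave 1 to 2 members that rose, the lower number without Nono-KO replicate 3, and 2 to 3 that fell. Without WT replicate 1, Dmd was called in place of Dag1. At the thresholds of the study 10.8% of all tested genes were higher and 18.7% lower. There the other subunits had 2 genes that rose and 2 that fell of 6 tested. The glycosylation list had 1 that rose and 1 that fell of 18, and the matrix ligands 0 and 1 of 8. The partners had 1 that rose and 1 that fell of 10, and the integrin and repair list 1 and 3 of 10. At an adjusted p under 0.01 alone, 2 glycosylation genes fell. With size factors in place of TMM, 2 partners rose in place of 1. Leaving out each library gave 6 to 10 glycosylation genes that rose and 1 to 4 that fell. The Dmd to Dag1 ratio lay between -0.569 and 0.0606 when single libraries were left out, turning positive without WT replicate 2, and the Sntb1 to Dmd ratio between -0.467 and 0.190, turning positive without Nono-KO replicate 1 or WT replicate 3. The Sgcb to Dag1 ratio lay between -0.343, without WT replicate 1, and -0.0345, without WT replicate 2. No sign of pairing by replicate number was seen. The deviations of same-numbered libraries correlated at 0.0454, -0.165 and -0.192, and no Nono-KO library correlated best with the WT library of its own number. With 3 libraries a group these values cannot exclude a pairing. With the replicate block 2 members rose and 3 fell, Sntb1 (-0.69, adjusted p = 0.043 from edgeR) taking the place of Dag1. Dmd, Sspn and Sntb1, with 9 to 61 counts a library, have wide intervals at this depth. Ratios with Dtna could not be computed, and the causes of these changes were not tested.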
